A study of Homo sapiens with 6 samples.

Results

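The genes of the RNA interference machinery were followed in HT-29 cells, a human colorectal adenocarcinoma line, in which siRNA pools had been used to knock down the lncRNAs HOXA-AS3 or HOXB-AS3. The set held 10 genes chosen by name, AGO1, AGO2, AGO3, AGO4, DICER1, DROSHA, DGCR8, TNRC6A, TNRC6B and XPO5. Each was found by its Entrez identifier among the 27434 rows of the deposited RNA-seq tables, and all 10 of 10 passed the filter on low counts that left 13034 genes for testing. Cells carried a non-targeting control pool (siNT), a pool against HOXA-AS3 (siHOXA-AS3) or a pool against HOXB-AS3 (siHOXB-AS3), and polyA RNA was taken 48 hours after transfection, with 2 libraries for each condition. The sample labels give a dose of 10 nM with DharmaFECT 4 as the transfection reagent and RNeasy for the RNA, whereas the study's methods name a higher dose and another extraction reagent. Every library, controls included, came from cells loaded with siRNA, and no untransfected cells were among the samples. The comparisons therefore set siRNA pools against each other, all in 1 cell line. Nothing in the labels says that the replicates were separate cultures, so the p-values measure the spread between these libraries, which may be technical.

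In the microRNA (miRNA) pathway, the nuclease DROSHA and its RNA-binding partner DGCR8 cut hairpins out of primary transcripts in the nucleus, XPO5 (exportin 5) carries them to the cytoplasm, and DICER1 cuts off the loop to leave a short duplex. An Argonaute protein (AGO1 to AGO4) keeps one strand, the guide, and finds targets mainly through the guide's seed, while the TNRC6 scaffold proteins bind Argonaute and recruit the enzymes that shorten and decap the target mRNA. Transfected siRNAs enter this pathway at Argonaute without needing DROSHA or DICER1, and only AGO2 among the Argonautes is known as an efficient slicer of fully matched targets.

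The siRNAs that the machinery was loaded with are shown here because their seeds were searched for in the transcripts of the 10 genes. The guide strands of the HOXB-AS3 pool are as listed by the study, and those of the HOXA-AS3 pool are the computed complements of the listed sense strands. They are written 5′ to 3′, with the seed (bases 2 to 8) in capitals.
HOXA-AS3 guide 1: uUGUUCGCuauucugucuc
HOXA-AS3 guide 2: uUGUUCGGcccuuccauug
HOXA-AS3 guide 3: aGCUUCGCuguccuuuccu
HOXA-AS3 guide 4: uAACGAGUgcccugucuac
HOXB-AS3 guide 1: aCUUUGUCucccuuugucguu
HOXB-AS3 guide 2: uUUCUUUCaugcccgacucuu
HOXB-AS3 guide 3: uUUCCCUUcaccccuugacuu

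In the GENCODE v29 annotation of GRCh38, the target sites of HOXA-AS3 guides 1 to 4 lie in exons of HOXA-AS3 on the plus strand, at chr7:27155847-27155865, chr7:27152656-27152674, chr7:27154078-27154096 and chr7:27155265-27155283. Guide 2 matched 4 of the 5 annotated HOXA-AS3 transcripts, and guides 1, 3 and 4 matched 1 of 5 each. The sites of HOXB-AS3 guides 1 to 3 lie in exons of HOXB-AS3, also on the plus strand, at chr17:48590450-48590468, chr17:48600494-48600512 and chr17:48590467-48590485, and were found in 2, 8 and 2 of its 15 transcripts. Over their first 19 bases, none of the 7 guides matched a transcript of any of the 10 genes in full. The longest run complementary to a guide in those transcripts was 13 bases, in TNRC6B, followed by 12 bases in AGO2 and 9 or 10 bases in the others. Runs were sought over all 7 guides together, and the pool behind each run was not recorded. Runs in other genes were not searched, so these lengths are a description only. The siNT sequences were not used here.

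Some properties of the libraries bear on the values of the machinery genes. Total expected counts ranged from 15998518 to 26263938 per library. Of 9 colon epithelium markers, 8 reached at least 1 FPKM in every library, the exception being CDX2 at 0.10 to 0.34 FPKM, and 6 markers of other cell types stayed at or below 0.17 FPKM, with COL1A2 at 0 throughout. In FPKM against siNT, 6 of the 9 colon markers were lower in both siHOXB-AS3 libraries (EPCAM, CDH1, KRT20, VIL1, LGALS4 and CEACAM5). The other 3 overlapped (KRT8, KRT18 and CDX2) and 0 were higher. Of all genes 30.9% were lower, but by expected counts scaled to TMM-normalized library size. The marker count can therefore not be set against that share. On that scale some markers with FPKM close to siNT were placed otherwise. KRT8 and KRT18 then lay above siNT in both siHOXB-AS3 libraries, and KRT20 overlapped siNT. In FPKM, siHOXB-AS3 against siNT, KRT8 was at 469 and 468.4 against 372.7 and 472.4. KRT18 was at 2233 and 2428 against 2093 and 2273, and KRT20 at 218.4 and 229.2 against 265.7 and 233.7. CDX2 had only 5 to 20 counts in any library. EPCAM was at 158.5 and 153.3 FPKM with siHOXB-AS3 and at 270.3 to 296.1 in the other 4 libraries, and CEACAM5 was at 29.7 and 28.1 against 80.1 to 95.8. Whether this difference had a part in the values below was not tested. HOXA-AS3 had 38 and 18 counts with siNT against 12 and 12 with siHOXA-AS3, a log2 fold change of -1.09 ± 0.403 (SE, n = 2 per group) that did not pass the test (edgeR adjusted p = 0.711). HOXB-AS3 had 303 and 213 counts with siNT against 67 and 76 with siHOXB-AS3, a change of -1.96 ± 0.248 (edgeR adjusted p = 0.0678). The siHOXA-AS3 libraries stood further apart than the others. Between replicates, the log2 difference had an SD over genes of 0.757 in siHOXA-AS3, while it was 0.464 in siNT and 0.416 in siHOXB-AS3.

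AGO2 was the most abundant of the 10 transcripts. Its level per transcript length was 41.7 and 42.4 FPKM with siNT, 57.0 and 44.5 with siHOXA-AS3, and 50.8 and 48.9 with siHOXB-AS3, above that of 87.7% of the genes tested on average. By mean FPKM over the 6 libraries the order was AGO2 (47.6 ± 5.87, SD), XPO5 (25.7 ± 3.65), DROSHA (18.6 ± 2.23), TNRC6A (9.94 ± 0.896), DICER1 (8.73 ± 1.62), AGO1 (6.86 ± 0.641), DGCR8 (5.26 ± 0.793), AGO3 (5.21 ± 0.774), AGO4 (3.37 ± 0.472) and TNRC6B (1.84 ± 0.412). The ranges of neighbours overlapped for XPO5 and DROSHA, TNRC6A and DICER1, DICER1 and AGO1, and DGCR8 and AGO3. The order was the same in TPM, which rescales FPKM by a constant within each library and so is no separate check. TNRC6B was the lowest, at 1.39 to 2.38 FPKM, although 532 to 1072 counts stood behind each value, since its row has a mean length of 17242 nucleotides. Levels per length rest on the lengths in the deposited tables, which were 3499 nucleotides for AGO2 and 3644 for AGO3, whereas the longest GENCODE transcripts of these genes have 14581 and 19687.

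**Figure D1:**
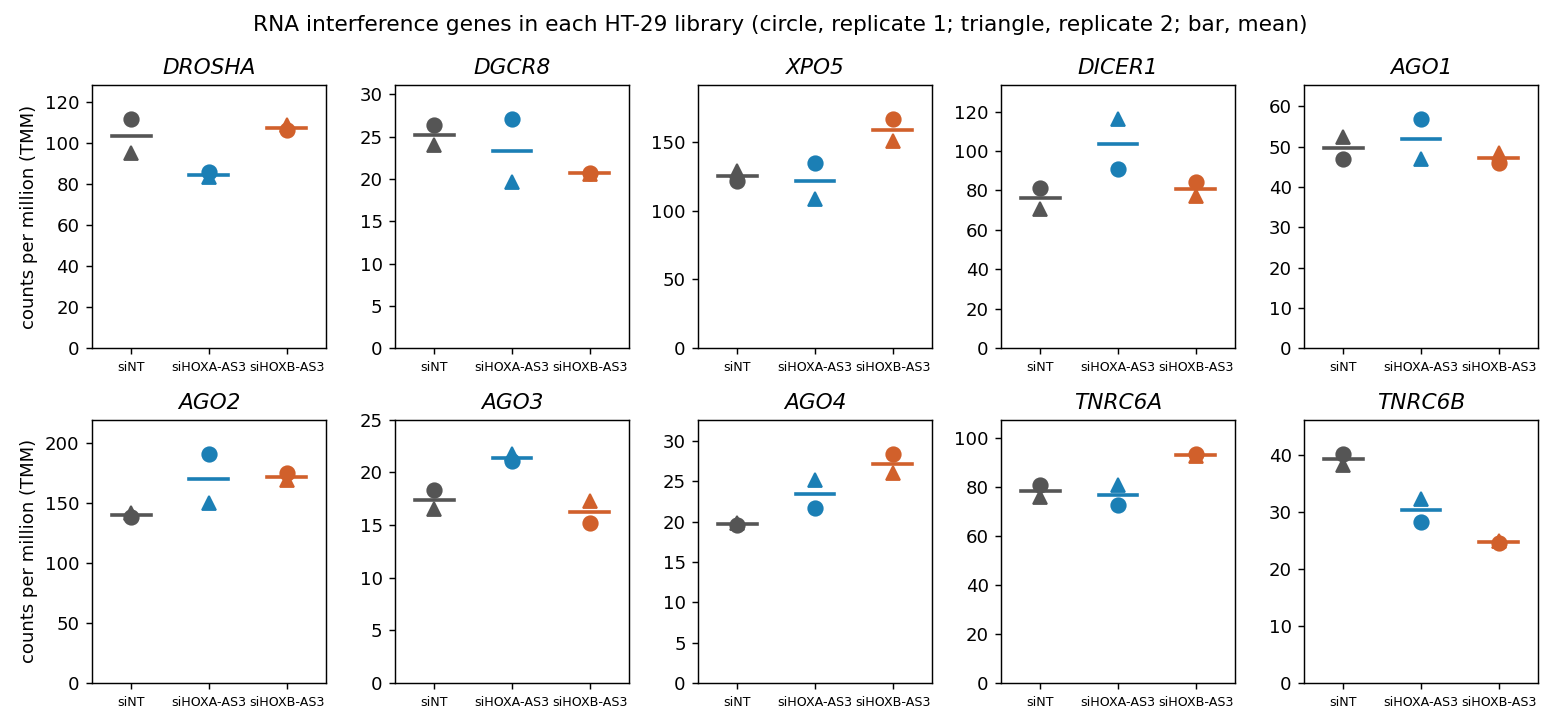
Each panel shows 1 gene, with TMM-normalized CPM (expected counts scaled to library size) on a linear vertical axis that starts at 0 and the conditions along the horizontal axis. Circles are replicate 1, triangles replicate 2 and bars the mean of 2 libraries. TNRC6B lies lowest in both siHOXB-AS3 libraries (24.6 and 24.9) and highest in both siNT libraries (40.15 and 38.3), while DGCR8, AGO2, XPO5 and DICER1 show their widest spread between the siHOXA-AS3 libraries.

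After HOXB-AS3 KD, none of the 10 genes passed an adjusted p of 0.05 in edgeR's quasi-likelihood test of all 6 libraries, where 8 of 13034 genes (0.0614%) did. The largest difference was in TNRC6B, which stood at 0.63 times its siNT level, followed by AGO4 at 1.38 times. These were the 2 genes of the set with an unadjusted p below 0.05, where 12.2% of all genes had one. AGO4 was among the 4.42% of genes with such a p that were higher and TNRC6B among the 7.75% that were lower. The median log2 fold change of the set was 0.07 and that of all genes tested -0.01. DESeq2 also called 0 of the 10, and 3.02% of the 11770 genes to which it gave an adjusted p.

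After HOXA-AS3 KD, none of the 10 genes passed the same test, and neither did any other gene (0 of 13034, 0.0%). No gene of the set had an unadjusted p below 0.05, where 6.16% of all genes did, 2.75% higher and 3.41% lower. DICER1 had the largest difference, at 1.36 times its siNT level, followed by TNRC6B at 0.771 times. The set's median log2 fold change was 0.02 against 0.01 for all genes, with 5 of 10 above 0 and 5 below, where 51.3% and 48.7% of all genes were. DESeq2 called 0 of the 10 and 0.562% of the 10507 genes to which it gave an adjusted p. Both KDs were compared with the same siNT libraries, so their values are given side by side below and are not independent of each other.

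Between the KDs, 0 of the 10 genes were called where 204 genes (1.57%) were, and none had an unadjusted p below 0.05, against 18.4% of all genes. XPO5, at 1.30 times, and DROSHA, at 1.27 times, were the highest in siHOXB-AS3 relative to siHOXA-AS3. AGO3, at 0.76 times, and DICER1, at 0.781 times, were the lowest. DESeq2 called 0 of the 10 and 6.28% of the 12528 genes to which it gave an adjusted p.

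DROSHA, the nuclease of the Microprocessor, had 111.7 and 95.1 CPM (expected counts scaled to TMM-normalized library size) with siNT, 86.1 and 83.3 with siHOXA-AS3, and 106.5 and 108.7 with siHOXB-AS3. Both siHOXA-AS3 libraries lay below all others, and the siHOXB-AS3 libraries lay within the siNT range. Its log2 fold change was -0.29 ± 0.165 (SE) for siHOXA-AS3 against siNT, with a 95% interval from -0.68 to 0.10 and an adjusted p of 0.91 in edgeR. For siHOXB-AS3 against siNT it was 0.06 ± 0.164, with an interval from -0.33 to 0.44.

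DGCR8, which recognises the hairpin for DROSHA, had 26.4 and 24.05 CPM with siNT, 27.1 and 19.6 with siHOXA-AS3, and 20.7 and 20.6 with siHOXB-AS3. The siHOXB-AS3 libraries lay below siNT, and the siHOXA-AS3 libraries lay on either side of it. The log2 fold changes were -0.29 ± 0.218 for siHOXB-AS3 (edgeR adjusted p = 0.666) and -0.11 ± 0.218 for siHOXA-AS3 (edgeR adjusted p = 0.997). In the latter comparison the sign turned to 0.11 without siHOXA-AS3 replicate 2 and the value was -0.36 without replicate 1. In GENCODE, exons of genes on the other strand cover 528 bases of DGCR8 exons, and the strand setting of the counting is not given in the sources used here.

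The DGCR8 row of the tables also carries the identifiers of MIR3618 and MIR1306, whose hairpins lie inside the DGCR8 transcript, so their reads cannot be told apart from those of the mRNA. DGCR8 mRNA is known as a substrate of the Microprocessor that DGCR8 itself forms, which is why the miRNAs are shown, from RefSeq (GRCh38.p14), with the seed in capitals.
hsa-miR-3618: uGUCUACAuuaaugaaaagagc
hsa-miR-1306-5p: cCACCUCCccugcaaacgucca
hsa-miR-1306-3p: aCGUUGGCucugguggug

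The 3 mature miRNAs are on the plus strand at chr22:20085797-20085818, chr22:20086072-20086093 and chr22:20086112-20086129. The hsa-miR-3618 sequence fell in the 5′ UTR of 3 of the 4 coding DGCR8 transcripts in GENCODE, and both hsa-miR-1306 sequences fell in the coding sequence of all 4. The 3 seeds all differ. PolyA libraries measure the host transcript and not the mature miRNAs, which were not measured.

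XPO5, the export receptor for the cut hairpins, had 121.6 and 129.1 CPM with siNT, 135.1 and 108.2 with siHOXA-AS3, and 166.6 and 150.5 with siHOXB-AS3. Both siHOXB-AS3 libraries lay above the other 4, and the siHOXA-AS3 libraries lay on either side of siNT. The log2 fold change was 0.34 ± 0.174 for siHOXB-AS3 against siNT, with an interval from -0.07 to 0.75 and an adjusted p of 0.509 in edgeR. Against siHOXA-AS3 it was 0.38 ± 0.174 (edgeR adjusted p = 0.306). Exons of POLR1C on the other strand cover 348 bases of XPO5 exons, so part of this value is uncertain if strand was not used.

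DICER1, which releases the short duplex, had 81.45 and 70.6 CPM with siNT, 91.0 and 116.1 with siHOXA-AS3, and 84.3 and 77.4 with siHOXB-AS3. Both siHOXA-AS3 libraries were above all others, with a wide gap between them, and the siHOXB-AS3 libraries overlapped siNT. Its log2 fold change was 0.44 ± 0.192 for siHOXA-AS3, with an interval from -0.01 to 0.90 and an adjusted p of 0.812 in edgeR. It was 0.09 ± 0.192 for siHOXB-AS3 (edgeR adjusted p = 0.906). The mean length of DICER1 transcripts estimated by RSEM stayed between 10007 and 10116 nucleotides over its 5 RefSeq transcripts. Exons of DICER1-AS1 on the other strand cover 80 bases of DICER1 exons.

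Among the Argonautes, AGO2 had 138.5 and 141.9 CPM with siNT, 190.9 and 149.7 with siHOXA-AS3, and 174.7 and 169 with siHOXB-AS3. All 4 KD libraries lay above both siNT libraries, and the siHOXB-AS3 libraries fell between the siHOXA-AS3 libraries. The log2 fold changes were 0.29 ± 0.171 for siHOXB-AS3 (interval from -0.11 to 0.70, edgeR adjusted p = 0.565) and 0.28 ± 0.171 for siHOXA-AS3 (interval from -0.12 to 0.69, edgeR adjusted p = 0.924).

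AGO4, an Argonaute that is not known to cut its targets, had 19.6 and 19.8 CPM with siNT, 21.7 and 25.2 with siHOXA-AS3, and 28.4 and 26.0 with siHOXB-AS3. The 3 conditions did not overlap, with siNT lowest and siHOXB-AS3 highest. The log2 fold change was 0.47 ± 0.189 for siHOXB-AS3 (interval from 0.02 to 0.91, edgeR adjusted p = 0.383) and 0.25 ± 0.19 for siHOXA-AS3 (interval from -0.20 to 0.70, edgeR adjusted p = 0.967).

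AGO1 and AGO3, the neighbours of AGO4 on chromosome 1, showed other patterns. AGO1 had 46.85 and 52.5 CPM with siNT, 56.8 and 46.9 with siHOXA-AS3, and 45.8 and 48.3 with siHOXB-AS3, so that the conditions overlapped. AGO3 had 18.3 and 16.5 CPM with siNT, 21.0 and 21.7 with siHOXA-AS3, and 15.2 and 17.3 with siHOXB-AS3. Both siHOXA-AS3 libraries were above the other 4 for AGO3, and siHOXB-AS3 overlapped siNT. AGO3 stood at a log2 fold change of 0.30 ± 0.193 in siHOXA-AS3 and -0.10 ± 0.194 in siHOXB-AS3, and AGO1 at 0.06 ± 0.189 and -0.08 ± 0.189. GENCODE places exons of other genes opposite 396 bases of AGO1 and 86 bases of AGO3.

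TNRC6B, a scaffold that links Argonaute to the deadenylases, had 40.15 and 38.3 CPM with siNT, 28.2 and 32.3 with siHOXA-AS3, and 24.6 and 24.9 with siHOXB-AS3. The conditions did not overlap, with siNT highest and siHOXB-AS3 lowest. The log2 fold change was -0.67 ± 0.182 for siHOXB-AS3 against siNT, with an interval from -1.10 to -0.24, an unadjusted p of 0.00789 in edgeR's quasi-likelihood fit and an adjusted p of 0.204. For siHOXA-AS3 against siNT it was -0.38 ± 0.181, with an interval from -0.80 to 0.05 and an adjusted p of 0.862 in edgeR. In bulk RNA, fewer cells with a transcript and less of it per cell cannot be told apart. The RSEM mean length of its 3 RefSeq transcripts stayed between 17062 and 17443 nucleotides.

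TNRC6A, the most abundant of these scaffolds per length, had 80.8 and 75.7 CPM with siNT, 72.7 and 80.55 with siHOXA-AS3, and 93.4 and 92.6 with siHOXB-AS3. Both siHOXB-AS3 libraries lay above the other 4, and siHOXA-AS3 overlapped siNT. The log2 fold change was 0.25 ± 0.163 for siHOXB-AS3 against siNT (interval from -0.14 to 0.63, edgeR adjusted p = 0.605) and -0.03 ± 0.163 for siHOXA-AS3 (edgeR adjusted p = 0.998).

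Counted by whether the libraries overlapped, 4 of the 10 genes had siHOXB-AS3 values that all exceeded those with siNT (AGO2, AGO4, TNRC6A and XPO5) and 2 had values that were all lower (DGCR8 and TNRC6B). Of all genes 30.9% were higher and 30.9% lower in this way. For siHOXA-AS3 against siNT, 4 genes were higher (AGO2, AGO3, AGO4 and DICER1) where 12.5% of all genes were, and 2 were lower (DROSHA and TNRC6B) where 16.1% were. Between the KDs, 4 genes were higher in siHOXB-AS3 (AGO4, DROSHA, TNRC6A and XPO5) and 3 were lower (AGO3, DICER1 and TNRC6B), against 22.8% and 22.5% of all genes.

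**Figure D2:**
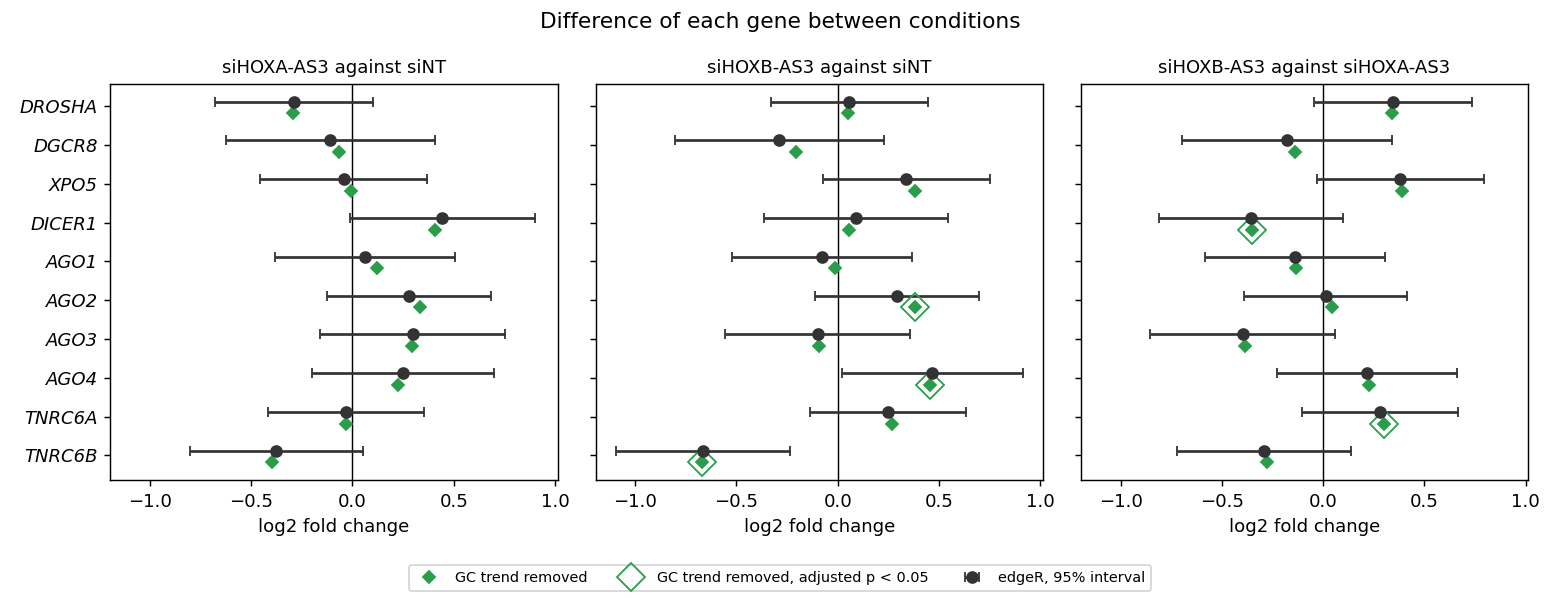
The log2 fold change of each gene is on the horizontal axis in 3 comparisons, 1 per panel. Black points and bars are edgeR estimates with 95% intervals from all 6 libraries, green diamonds are estimates after a trend on GC content was removed from each library, and an open diamond marks an adjusted p below 0.05 in the latter fit. The interval of TNRC6B in siHOXB-AS3 against siNT runs from -1.10 to -0.24 and that of AGO4 from 0.02 to 0.91, and the other intervals include 0.

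The calls depended on how the siHOXA-AS3 libraries entered the fit. When siNT was compared with siHOXB-AS3 alone, edgeR called 4 of the 10 genes, TNRC6B (adjusted p = 0.000496) lower, and XPO5 (adjusted p = 0.0141), AGO4 (adjusted p = 0.0145) and AGO2 (adjusted p = 0.0248) higher, while it called 23.3% of all genes. The estimates hardly moved, being -0.67 for TNRC6B, 0.46 for AGO4, 0.34 for XPO5 and 0.29 for AGO2. Leaving out either siHOXA-AS3 library from the fit of all libraries gave the same 4 calls, with 22.7% of all genes called without replicate 1 and 22.6% without replicate 2. Leaving out any siNT or siHOXB-AS3 library gave 0 calls in the set, and at most 0.00745% of all genes were then called, in the fit without siNT replicate 2. With the GC correction described below and the replicate number as a block, 2 of 10 were called, TNRC6B and AGO2, where 10.9% of all genes were. Over 18 alternatives the log2 fold change of TNRC6B after HOXB-AS3 KD stayed between -0.71 and -0.45, and its edgeR, DESeq2 or limma adjusted p ranged from 0.000358 to 1, below the threshold in 5. AGO2 was called in 5 of the 18, AGO4 in 4 and XPO5 in 3, each with a positive value in all 18. For each of these 4 genes, 2 of the calls came from the fits without a siHOXA-AS3 library. The highest adjusted p of each was 1.

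Base composition went with the gap between the siHOXA-AS3 replicates. Over the 12622 genes with a GC value, the log2 difference of replicate 2 from replicate 1 had a Pearson r of -0.752 and a Spearman rho of -0.803 with GC content, as a description across genes that share both libraries. The members lined up in the same way. The 4 with the highest GC content were lower in replicate 2, at a log2 difference of -0.46 for DGCR8 (54.7% GC), -0.35 for AGO2 (54.8%), -0.28 for AGO1 (51.9%) and -0.32 for XPO5 (48.3%). DICER1, with the lowest GC content (42%), was higher by 0.35, AGO4 (44.2%) by 0.21, TNRC6B (44.5%) by 0.20 and TNRC6A (46%) by 0.15. AGO3 and DROSHA differed by less than 0.1. In siNT the members differed by -0.23 to 0.16 and in siHOXB-AS3 by -0.15 to 0.18 between replicates. A trend with GC content was not confined to siHOXA-AS3. Over the same 12622 genes the siNT replicates had a Pearson r of 0.401 and a Spearman rho of 0.565, of the opposite sign. The siHOXB-AS3 replicates had -0.139 and -0.230.

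**Figure D3:**
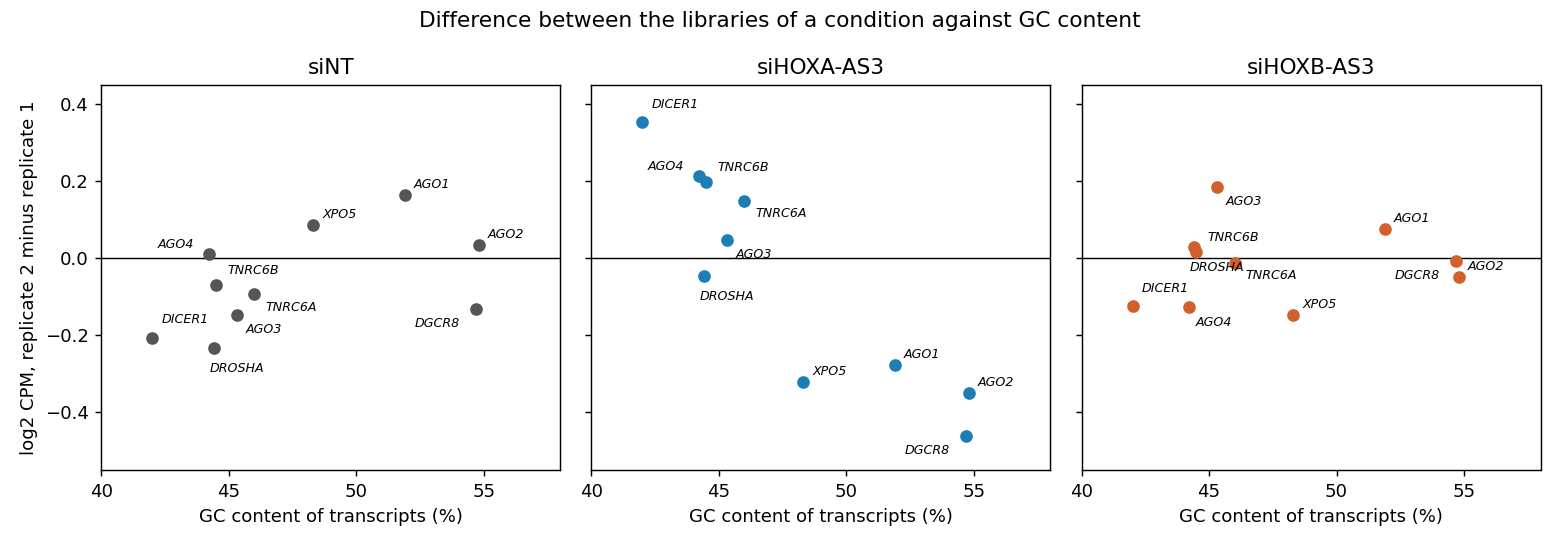
Each point is 1 of the 10 genes, with the GC content of its transcripts on the horizontal axis and the log2 CPM of replicate 2 minus that of replicate 1 on the vertical axis, in 1 panel per condition. In siHOXA-AS3 the values run from 0.35 for DICER1 at 42% GC to -0.46 for DGCR8 at 54.7%.

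With a loess trend on GC content removed from each library, edgeR called TNRC6B (-0.67 ± 0.109, adjusted p = 0.00524), AGO2 (0.38 ± 0.0874, adjusted p = 0.0217) and AGO4 (0.45 ± 0.125, adjusted p = 0.0419) after HOXB-AS3 KD, 3 of 10 where 14.8% of all genes were called. After HOXA-AS3 KD it called 0 of 10, where 4.41% of all genes were called, and 0 of 10 with the replicate number as a block in addition, where 2.77% were. The values nearest the threshold there were those of AGO2 (0.34 ± 0.0875, edgeR adjusted p = 0.0663), DICER1 (0.41 ± 0.108, adjusted p = 0.0718) and TNRC6B (-0.40 ± 0.109, adjusted p = 0.0793). Between the KDs it called TNRC6A (0.30 ± 0.0914, adjusted p = 0.0389) and DICER1 (-0.35 ± 0.108, adjusted p = 0.0402), 2 of 10 where 26.7% of all genes were called. With the block in addition it called DICER1 alone, where 23.0% of all genes were called.

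For siHOXA-AS3 against siNT, leaving out a siHOXA-AS3 library moved single genes past the threshold, with the lone library left assumed to vary like the other conditions. Without replicate 1 DICER1 was called (0.61, edgeR adjusted p = 0.00151), while 30.3% of all genes were. Without replicate 2 AGO2 (0.45, edgeR adjusted p = 0.00615) and TNRC6B (-0.47, edgeR adjusted p = 0.0346) were called, while 17.9% of all genes were. Without replicate 1 AGO1 turned to -0.08 and TNRC6A to 0.04, and without replicate 2 DGCR8 turned to 0.11 and XPO5 to 0.12. The fit without siNT replicate 2 called 0 of 10 and 0.00745% of all genes. For DICER1, AGO2 and TNRC6B the highest adjusted p over the 18 alternatives was 1, and each was called in 1 of them. Between the KDs, leaving out siHOXA-AS3 replicate 1 gave 3 calls in the set, XPO5 (0.55, edgeR adjusted p = 0.00115), DICER1 (-0.52, edgeR adjusted p = 0.00305) and DROSHA (0.37, edgeR adjusted p = 0.0282), where 37.8% of all genes were called. Leaving out replicate 2 gave 1 call, TNRC6A (0.35, edgeR adjusted p = 0.0328), where 36.0% were. Over the 18 alternatives the highest adjusted p was 0.85 for XPO5, 0.914 for DICER1, 0.891 for DROSHA and 0.91 for TNRC6A. With only the KD libraries 0 of 10 and 0.0156% of all genes were called, with the replicate number as a block 0 of 10 and 0.0767%, and without siNT replicate 1 or 2, 0 of 10 and 0.0449% or 0.119%.

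The make-up of the protein families was compared as shares of summed FPKM within a library, in which library scaling cancels. A trend with GC content does not cancel. AGO2 (54.8% GC) is richer in GC than AGO1 (51.9%), AGO3 (45.3%) and AGO4 (44.2%), and DGCR8 (54.7%) is richer than DROSHA (44.4%). Shares and ratios were not corrected for GC content. AGO2 made up 73.9% of the summed Argonaute level in both siNT libraries, 76.9% and 73.1% with siHOXA-AS3, and 77.8% and 76.5% with siHOXB-AS3. Both siHOXB-AS3 libraries lay above siNT, by 3.25 percentage points on average (two-sided p = 0.333 in an exact permutation test, and 2 libraries against 2 can give none smaller). The siHOXA-AS3 libraries lay on either side of siNT, with a mean difference of 1.12 percentage points (exact permutation p = 1). The summed Argonaute level was 56.4 and 57.4 FPKM with siNT, 74.1 and 60.8 with siHOXA-AS3, and 65.3 and 63.9 with siHOXB-AS3.

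TNRC6B's share of the TNRC6 level, in which its relative TNRC6C was included, was 16.7% and 16.8% with siNT, 12.9% and 14.2% with siHOXA-AS3, and 9.40% and 9.88% with siHOXB-AS3, so that the conditions did not overlap. TNRC6A's share was 69.3% and 69.2% with siNT, 68.4% and 72.7% with siHOXA-AS3, and 74.7% and 75.02% with siHOXB-AS3, a difference of 5.59 percentage points between siHOXB-AS3 and siNT (exact permutation p = 0.333, the smallest possible). The summed TNRC6 level was 14.3 and 13.3 FPKM with siNT, 12.9 and 13.4 with siHOXA-AS3, and 14.8 and 14.6 with siHOXB-AS3. The log2 ratio of DROSHA to DGCR8 per length was 1.82 and 1.71 with siNT, 1.40 and 1.82 with siHOXA-AS3, and 2.10 and 2.13 with siHOXB-AS3. It was 0.35 higher in siHOXB-AS3 than in siNT (exact permutation p = 0.333) and 0.50 higher than in siHOXA-AS3 (exact permutation p = 0.333).

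**Figure D4:**
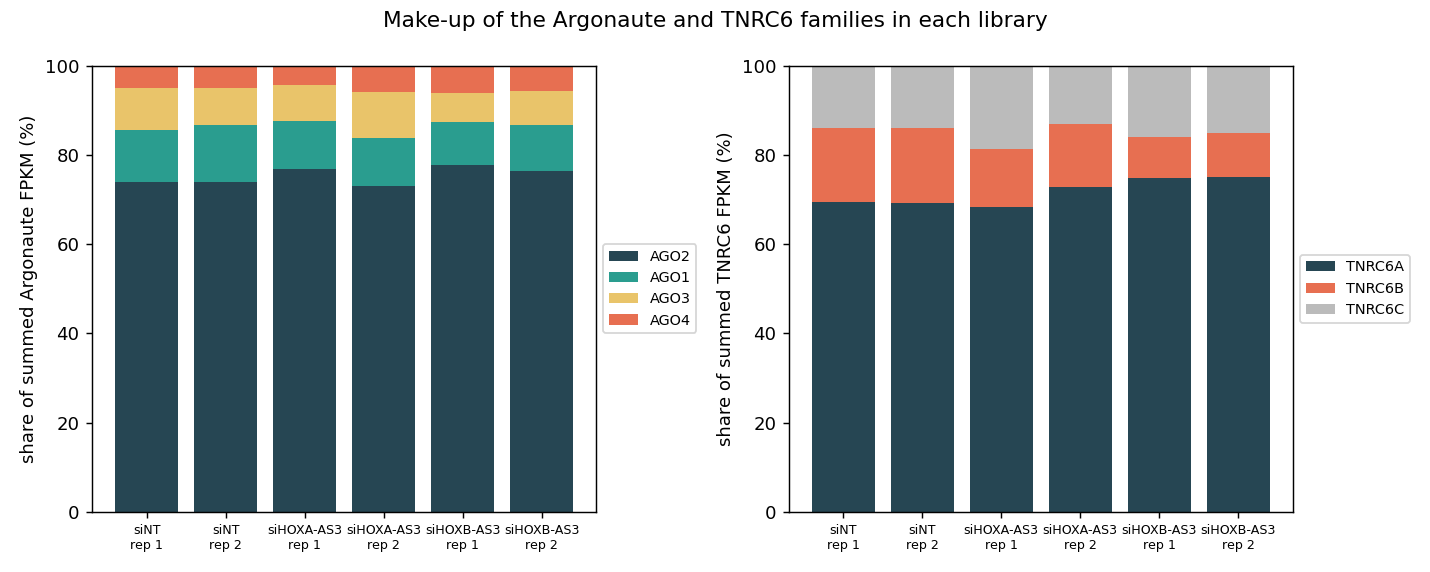
Stacked bars give each gene's share, in percent, of the summed FPKM of the 4 Argonaute genes (left) or the 3 TNRC6 genes (right) in each of the 6 libraries. AGO2 takes 73.1% to 77.8% of the Argonaute bars, and the TNRC6B segment shrinks from 16.7% and 16.8% in siNT to 9.40% and 9.88% in siHOXB-AS3.

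Sites complementary to a guide seed (7 bases, on the sense strand of the longest annotated 3′ UTR) were counted as a description of the 3′ UTRs and not of binding. For the 4 HOXA-AS3 guides the letters searched were GCGAACA for guide 1, CCGAACA for guide 2, GCGAAGC for guide 3 and ACTCGTT for guide 4, and 3 of the 10 genes held a match, AGO2, AGO3 and TNRC6B with 1 each, where 5.61% of 11150 genes did. For the 3 HOXB-AS3 guides the letters were GACAAAG for guide 1, GAAAGAA for guide 2 and AAGGGAA for guide 3, and 5 of 10 held a match, where 40.9% of all genes did. AGO3 had 10 matches, TNRC6B had 5, AGO1 and AGO2 had 4 each, and AGO4 had 1. The 3′ UTRs of the set were longer than most, with a median of 4277 nucleotides against 1379, and per kilobase the set held 0.356 HOXB-AS3 matches against 0.384 over all genes. For the HOXA-AS3 pool the density was 0.0445 against 0.0297. The genes with HOXB-AS3 matches included TNRC6B, at -0.67 after HOXB-AS3 KD, AGO2 and AGO4, at 0.29 and 0.47, and AGO1 and AGO3, at -0.08 and -0.10, whereas DICER1, DROSHA, DGCR8, TNRC6A and XPO5 had none.

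The wider pathway was followed in 8 lists that hold 78 other genes, 66 of which were tested. After HOXA-AS3 KD edgeR called 0 of the 66, as it did of all genes. After HOXB-AS3 KD it called 1, MIR31HG, where 0.0614% of all genes were called, and between the KDs it called 2, MIR31HG and MIR4435-2HG, where 1.57% were. DESeq2 called 0, 2 and 3 of the 66 in these comparisons. It called 0.562%, 3.02% and 6.28% of the genes to which it gave an adjusted p. With the GC trend removed edgeR called 1, 11 and 19, where it called 4.41%, 14.8% and 26.7%. The lists were written with earlier results of these data known, and their counts are descriptions.

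In the list of the Microprocessor, export and Dicer step, which has 5 genes beside the 4 above, edgeR's test of all 6 libraries called 0 of 9 in each comparison. With the GC trend removed it called 0 after HOXA-AS3 KD, 2 after HOXB-AS3 KD (DDX17 and RAN) and 3 between the KDs (DDX17, RAN and DICER1). DDX17, an RNA helicase that assists the Microprocessor, had 292.9 and 260.7 CPM with siNT, 252.1 and 255 with siHOXA-AS3, and 184.4 and 185.1 with siHOXB-AS3. Both siHOXB-AS3 libraries lay below the other 4, at a log2 fold change of -0.58 ± 0.145 against siNT (edgeR adjusted p = 0.178, with a range from 5.08e-05 to 1 over the 18 alternatives). RAN, the GTPase that XPO5 needs to hold its cargo, had 1608 and 1615 CPM with siNT, 1268 and 1708 with siHOXA-AS3, and 1982 and 2201 with siHOXB-AS3 (0.38 ± 0.176 against siNT, edgeR adjusted p = 0.469, with a range from 0.00265 to 1). The remaining 3 of the list, DDX5 and the DICER1 partners TARBP2 and PRKRA, stood within 0.25 of 0 on the log2 scale in both KDs.

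Among 12 chaperones that help to load RNA into Argonaute, edgeR's test of all 6 libraries called 0 in each comparison and the fit with the GC trend removed called 1, 2 and 6, with a median log2 fold change of -0.17 after HOXA-AS3 KD and 0.03 after HOXB-AS3 KD. HSPA8, the constitutive HSP70, had the lowest value after HOXA-AS3 KD, with 1157 and 1166 CPM in siNT and 806.6 and 904.6 in siHOXA-AS3 (-0.44 ± 0.145, edgeR adjusted p = 0.643). HSPA8 passed the threshold in 3 of the 18 alternatives, among them the fit with the GC trend removed (edgeR adjusted p = 0.048), with a range from 0.00222 to 1. FKBP5, an HSP90 cochaperone, had the highest at 0.41 ± 0.189 (edgeR adjusted p = 0.844). HSP90AB1, a cytosolic HSP90, had the highest value after HOXB-AS3 KD, with 877.9 and 861.2 CPM in siNT against 1022 and 1205 (0.36 ± 0.146, edgeR adjusted p = 0.387). The J-domain cochaperone DNAJA2 was the lowest of those whose libraries did not overlap, at -0.06 ± 0.207.

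The enzymes downstream of TNRC6 gave no call in edgeR's test of all 6 libraries. With the GC trend removed, edgeR called 0 deadenylase genes in either KD and 1 between the KDs (CNOT6), and 0 decapping genes after HOXA-AS3 KD, 1 after HOXB-AS3 KD (EDC4) and 4 between the KDs (DCP1A, DCP2, EDC3 and EDC4). Of the 12 CCR4-NOT and PAN deadenylase genes tested, the extremes that did not overlap siNT were CNOT4 (0.22 ± 0.175) and CNOT9 (-0.08 ± 0.165) after HOXA-AS3 KD, and the catalytic subunits CNOT6 (0.17 ± 0.265) and CNOT8 (-0.33 ± 0.243) after HOXB-AS3 KD. Of 10 decapping and decay genes, 8 were above 0 after HOXB-AS3 KD, where 49.3% of all genes were, with a median of 0.19. The 8 included DCP1B at 0.000488 ± 0.287 and DDX6 at 0.06 ± 0.181. In edgeR 0 of the 10 had an unadjusted p below 0.05, where 12.2% of all genes had one. The decapping enzyme DCP2 was at 0.35 ± 0.254 (edgeR adjusted p = 0.649) and the 4E-binding protein EIF4ENIF1 at -0.26 ± 0.24. After HOXA-AS3 KD the median was 0.01, and the DCP2 cofactor DCP1A was at -0.27 ± 0.162.

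Among 15 tested genes of miRNA tailing, trimming and turnover, edgeR's test of all 6 libraries called 0 in each comparison. DESeq2 called 1, ZSWIM8, between the KDs, and the fit with the GC trend removed called 0 after HOXA-AS3 KD and the same 2, ZSWIM8 and TUT7, in both comparisons with siHOXB-AS3. ZSWIM8, a ubiquitin ligase adaptor known for target-directed miRNA decay, had 22.4 and 23.3 CPM with siNT, 32.2 and 18.7 with siHOXA-AS3, and 15.5 and 11.3 with siHOXB-AS3 (-0.77 ± 0.304 against siNT, edgeR adjusted p = 0.372). Against siHOXA-AS3 it was at -0.93 ± 0.304 (edgeR adjusted p = 0.178, DESeq2 adjusted p = 0.0451). DIS3L2, a 3′ exonuclease, was the highest of the list after HOXB-AS3 KD at 0.36 ± 0.333. After HOXA-AS3 KD the uridylyltransferase TUT4 was at 0.17 ± 0.175 and the editing enzyme ADAR at -0.25 ± 0.175. LIN28A, LIN28B and TRIM71 had 0 to 4.36 counts in any library and were not tested. Of the PIWI proteins, which belong to the germline branch of the family, PIWIL2 and PIWIL4 were tested and PIWIL1 and PIWIL3 had too few counts. PIWIL4 was at -0.28 ± 0.212 after HOXA-AS3 KD and -0.27 ± 0.211 after HOXB-AS3 KD, from 11.95 and 14.03 CPM in siNT.

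The calls were among 9 tested miRNA host transcripts. MIR31HG, the host of miR-31, had 19.7 and 20.15 CPM with siNT, 24.4 and 25.5 with siHOXA-AS3, and 4.27 and 4.91 with siHOXB-AS3. It fell by 2.12 on the log2 scale after HOXB-AS3 KD (SE 0.205, edgeR adjusted p = 0.0492). It stayed below 0 in all 18 alternatives, with adjusted p-values from 6.92e-11 in DESeq2 to 1 without siHOXB-AS3 replicate 2. It lost the call without any of the 4 libraries compared and with the replicate number as a block (edgeR adjusted p = 0.138). MIR4435-2HG had 22.8 and 23.9 CPM with siNT, 22.6 and 16.1 with siHOXA-AS3, and 47.1 and 45.98 with siHOXB-AS3, a log2 fold change of 1.00 ± 0.217 against siNT (edgeR adjusted p = 0.146, DESeq2 adjusted p = 0.00804, and from 2.24e-06 to 1 over the 18 alternatives). MIR34AHG, the host of miR-34a, was at -0.95 ± 0.274 after HOXB-AS3 KD (edgeR adjusted p = 0.226). In the same comparison 8 of the 9 hosts were below 0, where 50.7% of all genes were. The 8 included MIR17HG at -0.07 ± 0.533 and MIR600HG at -0.08 ± 0.467, and MIR205HG, which had only 0.253 to 0.927 CPM over the 6 libraries. After HOXA-AS3 KD MIR22HG was at 0.67 ± 0.256 (edgeR adjusted p = 0.736) and MIR34AHG at -0.38 ± 0.27.

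**Figure D5:**
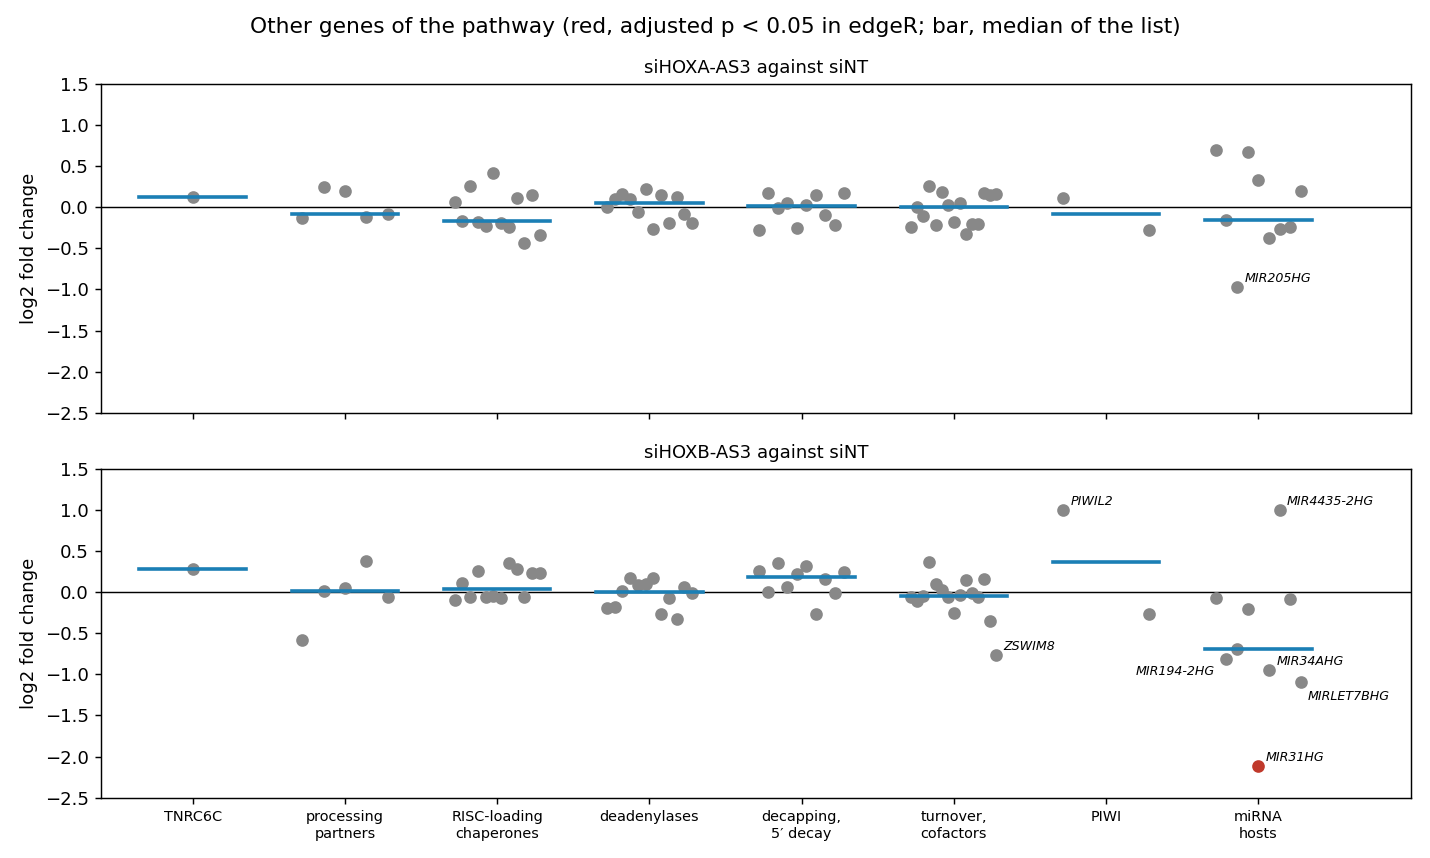
Points are the tested genes of each list other than the 10 machinery genes, with log2 fold changes against siNT on the vertical axis, after HOXA-AS3 KD above and after HOXB-AS3 KD below. Blue bars are medians of the points, names mark values more than 0.75 from 0, and red marks an adjusted p below 0.05 in edgeR, reached by MIR31HG at -2.12 after HOXB-AS3 KD.

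The profiles of the 10 genes were compared as a description. Over the 6 libraries, relative to the siNT mean, the most alike were TNRC6A and XPO5, with a root mean square difference of 0.159 on the log2 scale, and TNRC6B was the farthest from its nearest member, DGCR8, at 0.325. The genes whose profile was closest to the mean of the set were FAM120AOS (0.0179), ACTR8 (0.0265) and NBR1 (0.0341), all near 0 in every library as the mean of the set was.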

How the data were processed

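PolyA RNA-seq of 6 HT-29 libraries (Lexogen SENSE mRNA, per the labels) was analysed from gene-level tables. The authors deposited RSEM expected counts (estimated counts, not normalized), TPM (scaled to a common sum) and FPKM (scaled by length and library size) on RefSeq genes. The submitters' processing notes name RSEM and hg19. Aligner, tool versions and strandedness were not given in the sources used here. Total expected counts were 15998518 to 26263938 per library. Intervals rest on the spread between libraries. Rows joining several genes (627 of 27434) held 6.02% to 6.62% of counts and rows without a symbol at most 0.0433%. No libraries were duplicates (smallest chi-square per gene 6.89).

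Expected counts were rounded and fitted with edgeR 4.0.16 in R 4.3.3 (filterByExpr with a minimum count of 10, TMM, robust quasi-likelihood test of all 6 libraries), with Benjamini-Hochberg adjustment over 13034 genes and a threshold of 0.05. Steps were tested on simulated data. Shares and ratios of FPKM had exact permutation tests (scipy 1.17.1). Alternatives (18) were DESeq2 1.42.0, RLE factors, library totals, no filter, counts left unrounded, fits of the compared groups alone, a block for the replicate number (also with a GC correction), GC or length loess trends (span 0.3) removed, limma 3.58.1 on log2(FPKM + 0.1) or log2(FPKM + 1), and each library left out. GC content (96.8% of genes), UTRs and transcripts came from GENCODE v29 and miRNAs from RefSeq (GRCh38.p14), whose coordinates are not those of the deposited build.

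Groups came from the labels. Members and lists were chosen with earlier results of these data known. Named genes were the 10 members, called list genes and, for each KD and list, the highest and lowest gene of at least 1 mean FPKM whose libraries did not overlap siNT.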

Additional observations from a re-analysis of the deposited data

Results flagged for a closer look

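The response of MIR31HG and MIR4435-2HG differed between the KDs by a test of the difference itself. MIR31HG was lower after HOXB-AS3 KD than after HOXA-AS3 KD, by -2.44 on the log2 scale (SE 0.207, edgeR adjusted p = 0.0162), with 4.27 and 4.91 CPM against 24.4 and 25.5, and it was below 0 in all 18 alternatives, with adjusted p-values from 9.21e-16 in DESeq2 to 0.301 without siHOXB-AS3 replicate 2. MIR4435-2HG was higher by 1.26 (SE 0.219, edgeR adjusted p = 0.0492), with 47.1 and 45.98 CPM against 22.6 and 16.1, above 0 in all 18 alternatives and past the threshold in 9 of them, with a lowest adjusted p of 3.42e-07, when siHOXA-AS3 replicate 1 was left out, and a highest of 0.538, when siHOXB-AS3 replicate 2 was. With only the KD libraries in the fit neither passed the threshold (edgeR adjusted p = 0.055 for MIR31HG and 0.168 for MIR4435-2HG). Without siNT replicate 1 the values were 0.0505 and 0.167, and without siNT replicate 2 MIR4435-2HG was at 0.153. Without siHOXB-AS3 replicate 1 they were 0.277 and 0.431.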

How the results depend on the processing

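After HOXA-AS3 KD the count of genes called, 0 of 13034, became 59 in DESeq2, 24 without a filter, 575 with the GC trend removed and 1 with limma on log2(FPKM + 0.1), and the GC fit called 1 listed gene. After HOXB-AS3 KD it went from 8 to 356 in DESeq2, 265 without a filter, 2995 with only the groups compared, 1930 with the GC trend removed, and 14 and 13 with limma at pseudocounts of 0.1 and 1. The members called went from 0 to 4 and 3 with only the groups compared and with the GC trend removed, and the other listed genes called went from 1 to 2 in DESeq2, 2 without a filter, 11 with only the groups compared and 11 with the GC trend removed. The members' median, 0.07, moved to 0.02 with library totals or limma at a pseudocount of 1 (0.0249 and 0.0232) and to 0.19 with the length trend removed, where AGO1 turned to 0.0292. Between the KDs, 204 genes became 787 in DESeq2, 706 without a filter, 2 with only the groups compared and 3480 with the GC trend removed, which called 2 members. The 2 listed genes became 1 with library totals and with limma at either pseudocount, 0 with only the groups compared and 19 with the GC trend removed. The median, -0.06, turned to 0.0296 with the length trend removed. AGO2, at 0.01, turned to -0.0209 with library totals, -0.0051 without a filter, and -0.0141 and -0.0140 with limma at pseudocounts of 0.1 and 1.

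Whether the replicate numbers pair the libraries could not be decided. Deviations of same-numbered libraries from their group means correlated at -0.312 for siNT with siHOXA-AS3 and -0.142 for siNT with siHOXB-AS3. For siHOXA-AS3 with siHOXB-AS3 the correlation was 0.137. The GC trends between replicates described above were not removed from these deviations, so a shared culture or batch could be hidden by them. With the replicate number as a block, genes called after HOXB-AS3 KD went from 8 to 0 and listed genes from 1 to 0, and between the KDs genes went from 204 to 10 and listed genes from 2 to 1. The block with the GC trend removed called 361 genes after HOXA-AS3 KD, 1427 genes with 2 members (TNRC6B and AGO2) and 5 other listed genes after HOXB-AS3 KD, and 2993 genes with 1 member and 17 listed genes between the KDs.

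With each library left out in turn, counts after HOXA-AS3 KD ranged from 0 to 4031 genes, 0 to 2 members and 0 to 21 listed genes. After HOXB-AS3 KD they ranged from 0 to 3035 genes, 0 to 4 members and 0 to 11 listed genes, and between the KDs from 0 to 5027 genes, 0 to 3 members and 0 to 29 listed genes. The high ends came without a siHOXA-AS3 library. The members' median ranged from -0.0214 to 0.13 after HOXA-AS3 KD, from 9.9e-05 to 0.18 after HOXB-AS3 KD and from -0.17 to 0.10 between the KDs. Genes that changed sign after HOXA-AS3 KD were AGO1 (-0.0818 to 0.20), DGCR8 (-0.36 to 0.11), TNRC6A (-0.10 to 0.039) and XPO5 (-0.21 to 0.12). After HOXB-AS3 KD they were AGO1 (-0.16 to 0.0087), DICER1 (-0.0085 to 0.19) and DROSHA (-0.0531 to 0.18), and between the KDs AGO1 (-0.28 to 0.0087), AGO2 (-0.16 to 0.20) and DGCR8 (-0.40 to 0.0762). For siHOXA-AS3 against siNT the difference in AGO2 share ranged from -0.78 to 3.03 percentage points, that in TNRC6A share from -0.88 to 3.43, and that in the DROSHA to DGCR8 log2 ratio from -0.36 to 0.0522. The causes were not tested. Depth was not tested as a limit.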
